A study of Mus musculus with 12 samples.

Results

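A set of 9 genes that mark cells of the olfactory bulb was followed across 12 microarrays of mouse whole brain: Doc2g, Eomes, Tbx21, Cdhr1, Scgn, Calb2, Sp8, S100a5 and Omp. They were chosen by name, and every probe carrying one of these names was used, which gave 11 probes for the 9 genes (a pair each for Eomes and Sp8) among 26495 genes tested. The knockout mice lack interleukin-18, a cytokine of the interleukin-1 family, and were compared with wild type; all mice were untreated BALB/c animals. There were 3 knockout mice at 6 weeks, 3 wild-type mice at 6 weeks, 3 knockout mice at 12 weeks and 3 wild-type mice at 12 weeks, with 1 array of total RNA each. The labels call the arrays of a group biological replicates, give neither sex nor litter, and say nothing of how much olfactory bulb was taken with each brain.

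The olfactory bulb is the first relay of smell. Axons of olfactory sensory neurons, whose cell bodies lie in the nose, end in its glomeruli on mitral and tufted cells, the output neurons of the bulb, while periglomerular and granule interneurons shape the signal locally. The bulb sits at the very front of the brain on a narrow stalk, so the amount kept can vary when a brain is removed. In a whole-brain sample, fewer cells of a type and less RNA per cell cannot be told apart, nor can either be told apart from less bulb in the sample.

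Of these genes 4 mark mitral and tufted cells: Eomes and Tbx21 encode T-box transcription factors, Cdhr1 a cadherin-related adhesion protein, and Doc2g a member of the Doc2 family of C2-domain proteins. Another 3 mark interneurons: Scgn encodes secretagogin and Calb2 calretinin, both calcium-binding proteins, and Sp8 a zinc-finger transcription factor. The other 2 belong to sensory neurons: Omp encodes olfactory marker protein and S100a5 a calcium-binding protein. Several of these genes are also known outside the bulb, Calb2 in many other neurons, Eomes and Tbx21 in T and NK cells, and Cdhr1 in photoreceptors.

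Each probe is a stretch of 60 bases printed once on the array. The probes shown here are those of Eomes and Sp8, where 2 probes of the same gene gave different patterns, and that of the sensory neuron gene Omp, which varied most. Positions are on mouse build mm9 as the files give them, and the first 30 bases are printed except where a probe is given whole.
Sp8, tested probe, chr12:120090880-120090939: aaacattgtcttgttatgtctaagtgcatt
Sp8, second probe, chr12:120088145-120088204, whole: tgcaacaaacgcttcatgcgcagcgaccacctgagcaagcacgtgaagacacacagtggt
Eomes, tested probe, chr9:118394425-118394484: gctatgaagaacgagtgcccggtgctatta
Eomes, second probe, chr9:118395189-118395248: tcataagtcatttttaataaatgtggttca
Omp, chr7:105291870-105291929: gccctgtggggacatgagtgtctctgttgt
Other probes lie at chr19:4006386-4006557 (Doc2g), chr11:96959417-96959476 (Tbx21), chr14:37891387-37891446 (Cdhr1), chr13:24054004-24054661 (Scgn) and chr8:112678555-112678614 (Calb2). The Doc2g and Scgn probes span 172 and 658 bases of the genome, more than their 60 bases. Exons and untranslated regions at these positions were not analysed here.

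Each value is the log2 processed signal less the log2 75th percentile for its array, so 0 means the level of that percentile, and levels of different probes are not compared. The share of spots well above background ran from 65.9% to 76.2% by array, and all 11 probes passed that mark on all 12 arrays. Il18 itself lay between -0.32 and -0.17 in knockout arrays, against 1.51 to 1.93 in wild-type arrays; the sources used here do not say whether its probe falls inside the deletion. The arrays lay on 2 slides, as the scan headers show. Slide 2 held the 3 arrays of 12-week knockout and replicate 3 of 6-week knockout. Slide 1 held the other 8, among them every wild-type array.

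Before any comparison of groups, 1 array stood apart for most of these genes. Wild-type 6-week replicate 2 was the lowest of the 12 arrays for 7 of the 9 genes, all but Eomes and Calb2, and for the same 7 genes wild-type 6-week replicate 1 was the second lowest. Over 26447 genes with a value on every array, 7.74% had their lowest value in that replicate 2. The group comparisons that use it are therefore given with and without it.

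Omp moved most. Its values were 0.96, 1.77 and 2.17 in 6-week knockout, against 0.64, -1.45 and 1.77 in 6-week wild type. At 12 weeks they were 2.52, 2.52 and 2.35 in knockout, against 2.40, 1.32 and 2.14 in wild type. In wild-type 6-week replicate 2 it was 12.0-fold below the median of the other 11 arrays, and the 12 values spanned 15.6-fold. The knockout and wild-type ranges overlapped at each age.

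S100a5, the other sensory neuron gene, followed the same order at its low end. It had values of 1.17, 2.03 and 2.20 in 6-week knockout, against 0.94, -0.80 and 1.92 in 6-week wild type. At 12 weeks it had 2.38, 2.29 and 2.12 in knockout, against 2.74, 1.87 and 2.37 in wild type. Wild-type 6-week replicate 2 was 7.57-fold below the median of the others, and the knockout and wild-type arrays overlapped at both ages. Knockout 6-week replicate 1 was the third lowest array for both sensory neuron genes.

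Among the mitral and tufted cell genes, Doc2g had values of 0.52, 0.60 and 0.67 in 6-week knockout, against -0.18, -1.23 and 0.44 in 6-week wild type. At 12 weeks they were 1.45, 1.07 and 1.21 in knockout, against 0.96, 0.26 and 0.64 in wild type. Knockout and wild type did not overlap at either age, and wild-type 6-week replicate 2 was 3.67-fold below the median of the other arrays. The genotypes lay on different slides at 12 weeks, and how many of all genes were apart at either age was not counted.

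Tbx21, the T-box factor known as T-bet, had values of -2.18, -2.35 and -2.03 in 6-week knockout, against -3.26, -3.87 and -2.40 in 6-week wild type. At 12 weeks it had -1.11, -1.08 and -1.43 in knockout, against -2.10, -2.38 and -2.43 in wild type. The 3 arrays of 12-week knockout were the 3 highest of all. The lowest array, wild-type 6-week replicate 2, was 3.23-fold below the median of the others.

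Cdhr1 had values of 0.95, 0.71 and 0.83 in 6-week knockout, against 0.12, -0.76 and 0.73 in 6-week wild type. At 12 weeks they were 1.23, 1.30 and 1.06 in knockout, against 1.21, 0.52 and 0.86 in wild type. Knockout and wild type overlapped at both ages, and wild-type 6-week replicate 2 was 3.08-fold below the median of the others.

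Eomes, the T-box factor known as Tbr2, went another way. The probe used in the tests had values of -1.23, -1.01 and -0.57 in 6-week knockout, against -1.10, -0.13 and -0.44 in 6-week wild type. At 12 weeks it had -0.81, -0.79 and -1.07 in knockout, against -0.88, -1.22 and -1.34 in wild type. Wild-type 6-week replicate 2, the lowest array for Doc2g, Tbx21 and Cdhr1, was the highest here. The second Eomes probe had values of -3.34, -2.77 and -2.89 in 6-week knockout, against -3.21, -3.40 and -2.59 in 6-week wild type, and wild-type replicate 2 was its lowest array. The pair of Eomes probes thus placed the same array at opposite ends, and at 12 weeks the second probe had -2.67, -2.82 and -2.84 in knockout, against -2.90, -3.30 and -3.34 in wild type.

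Of the interneuron genes, Scgn had values of -3.74, -3.78 and -3.94 in 6-week knockout, against -4.78, -5.18 and -4.01 in 6-week wild type. At 12 weeks they were -2.80, -2.96 and -2.87 in knockout, against -3.42, -3.78 and -3.49 in wild type. Knockout and wild type were apart at both ages, and wild-type 6-week replicate 2 was 2.70-fold below the median of the other arrays. Here too the share of all genes apart in this way was not counted.

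The tested Sp8 probe had values of 0.47, 0.37 and 0.02 in 6-week knockout, against -0.40, -0.91 and 0.40 in 6-week wild type. At 12 weeks it had 0.50, 0.19 and 0.29 in knockout, against 0.55, -0.09 and 0.21 in wild type. This put wild-type 6-week replicate 2 at 2.30-fold below the median of the others. The second Sp8 probe ran between -2.23 and -1.58 over the 12 arrays, and wild-type 6-week replicate 2, at -1.93, was 1.05-fold below the median of the others there. The low value of that array was seen with 1 of the 2 Sp8 probes.

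Calb2, the calretinin gene, varied little. Its values were -0.02, 0.08 and -0.07 in 6-week knockout, against 0.31, 0.07 and 0.23 in 6-week wild type, and 0.15, -0.07 and 0.31 in 12-week knockout, against 0.35, 0.39 and 0.11 in 12-week wild type. The value of wild-type 6-week replicate 2 was 1.06-fold below the median of the others.

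**Figure D1:**
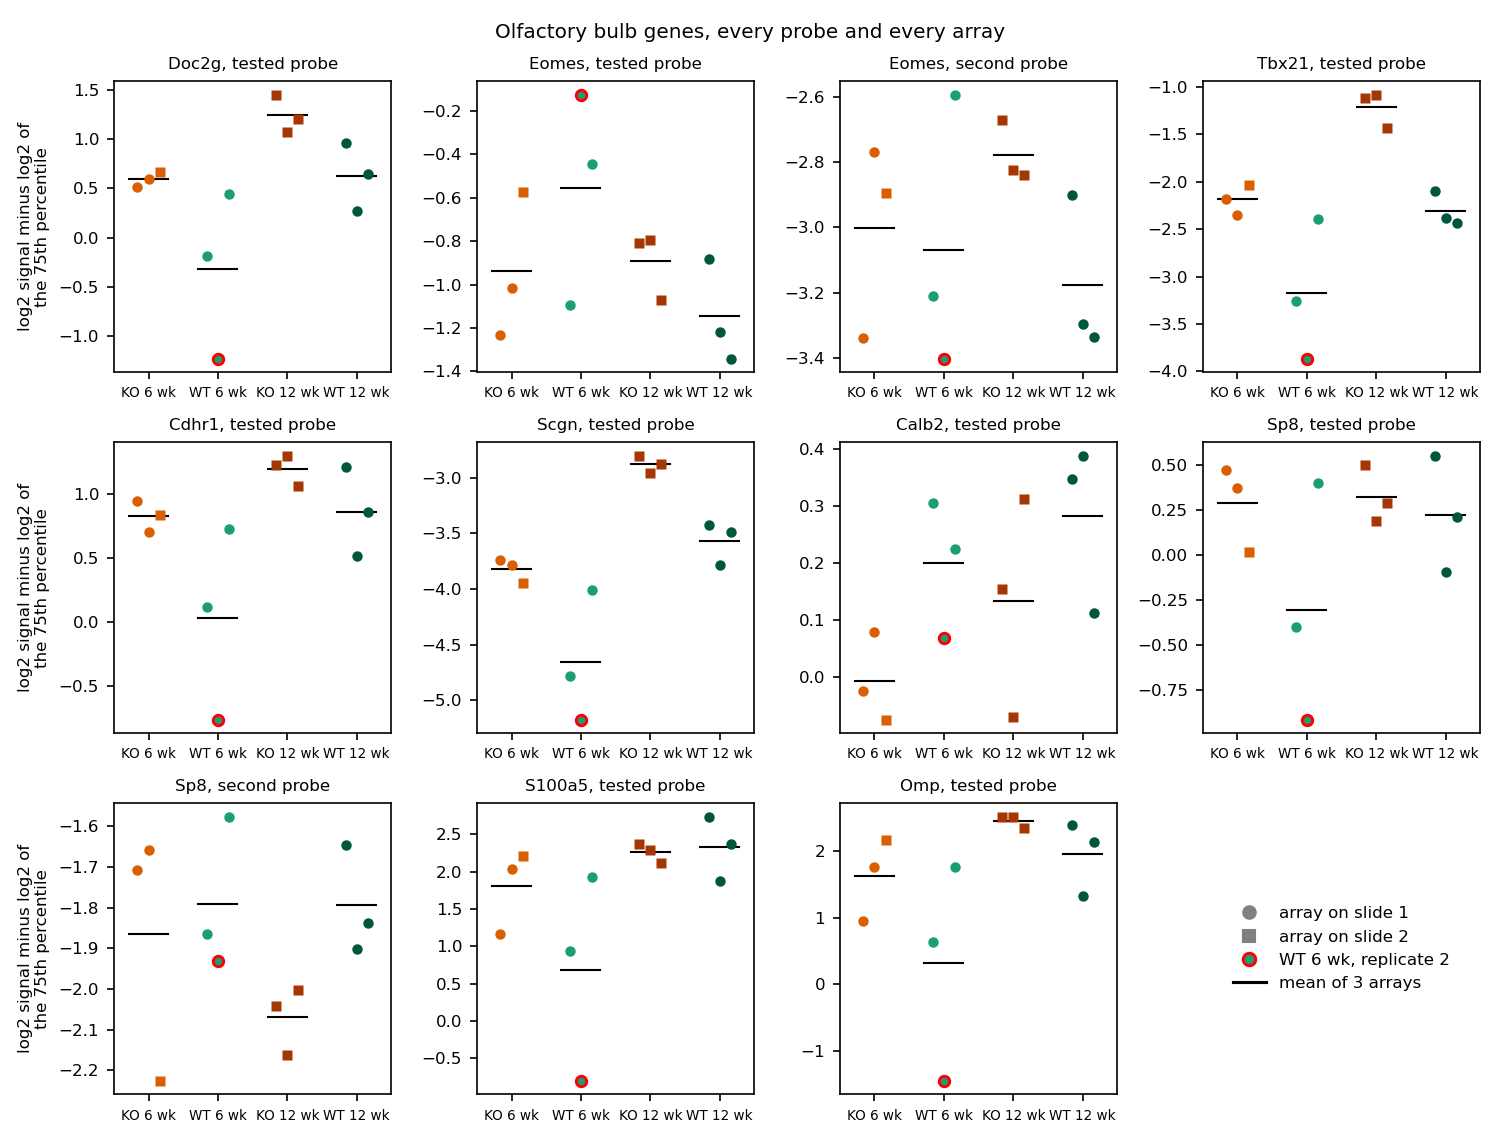
Level of each olfactory bulb gene on every array (log2 signal minus log2 of the array's 75th percentile), 1 panel per probe, with knockout (KO) left of wild type (WT) at each age. Circles are arrays of slide 1, squares arrays of slide 2, lines the mean of 3 arrays, and the red ring marks wild-type 6-week replicate 2, the lowest array for 7 of the 9 tested probes. Axes differ between panels.

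The spread between replicates differed by group. In 6-week wild type the SD of 8 of the 9 genes was larger than that of 90% of all genes, with a median SD of 0.74 against 0.11 over all genes. The same held for 2 of the 9 genes in 6-week knockout, where the median SD was 0.16 against 0.15 over all genes. At 12 weeks it held for none of the 9 in knockout (median SD 0.16 against 0.10) and for 5 of the 9 in wild type (0.32 against 0.11). Over the other pair of 6-week wild-type arrays, without replicate 2, it again held for 8 of the 9 genes (median SD 0.54 against 0.10). Within all of 6-week wild type the SD was 1.63 for Omp, 1.38 for S100a5, 0.85 for Doc2g and 0.12 for Calb2.

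The genes that varied did so together. Within slide 1, where 8 arrays share a slide, Pearson's r was computed for all 36 pairs with an exact permutation test, two-sided, and Benjamini-Hochberg adjustment over the 36. All 21 pairs among Doc2g, Tbx21, Cdhr1, Scgn, Sp8, S100a5 and Omp passed at an adjusted p under 0.05, with r between 0.84 and 0.99, a median of 0.95 and a highest adjusted exact p of 0.0201. None of the 15 pairs with Eomes or Calb2 passed, with r between -0.62 and 0.38. By Spearman's rho 8 of the 36 pairs passed, all of them among the 21, whose rho ran between 0.55 and 0.98. Splitting off Eomes and Calb2 was done after these values were seen and carries no test of its own.

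Much of this likeness came with 2 arrays. Without wild-type 6-week replicates 1 and 2, the 2 arrays farthest from the median for each of the 21 pairs, r over the remaining 6 arrays ran between 0.04 and 0.97 with a median of 0.63, and it was under 0.5 in 8 pairs. S100a5 and Omp, the sensory neuron pair, stayed at 0.97 (0.99 over 8 arrays), and Doc2g and Cdhr1, of mitral and tufted cells, at 0.90 (0.99 over 8 arrays). Tbx21 and Omp, of different cells, had 0.04 (0.89 over 8 arrays), so that relation rests on those 2 arrays. Over all 12 arrays, as deviations from the group means, the same number of pairs passed, 21, with a median r of 0.89 among those 7 genes. Without wild-type 6-week replicate 2 alone, 9 pairs passed within slide 1.

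**Figure D2:**
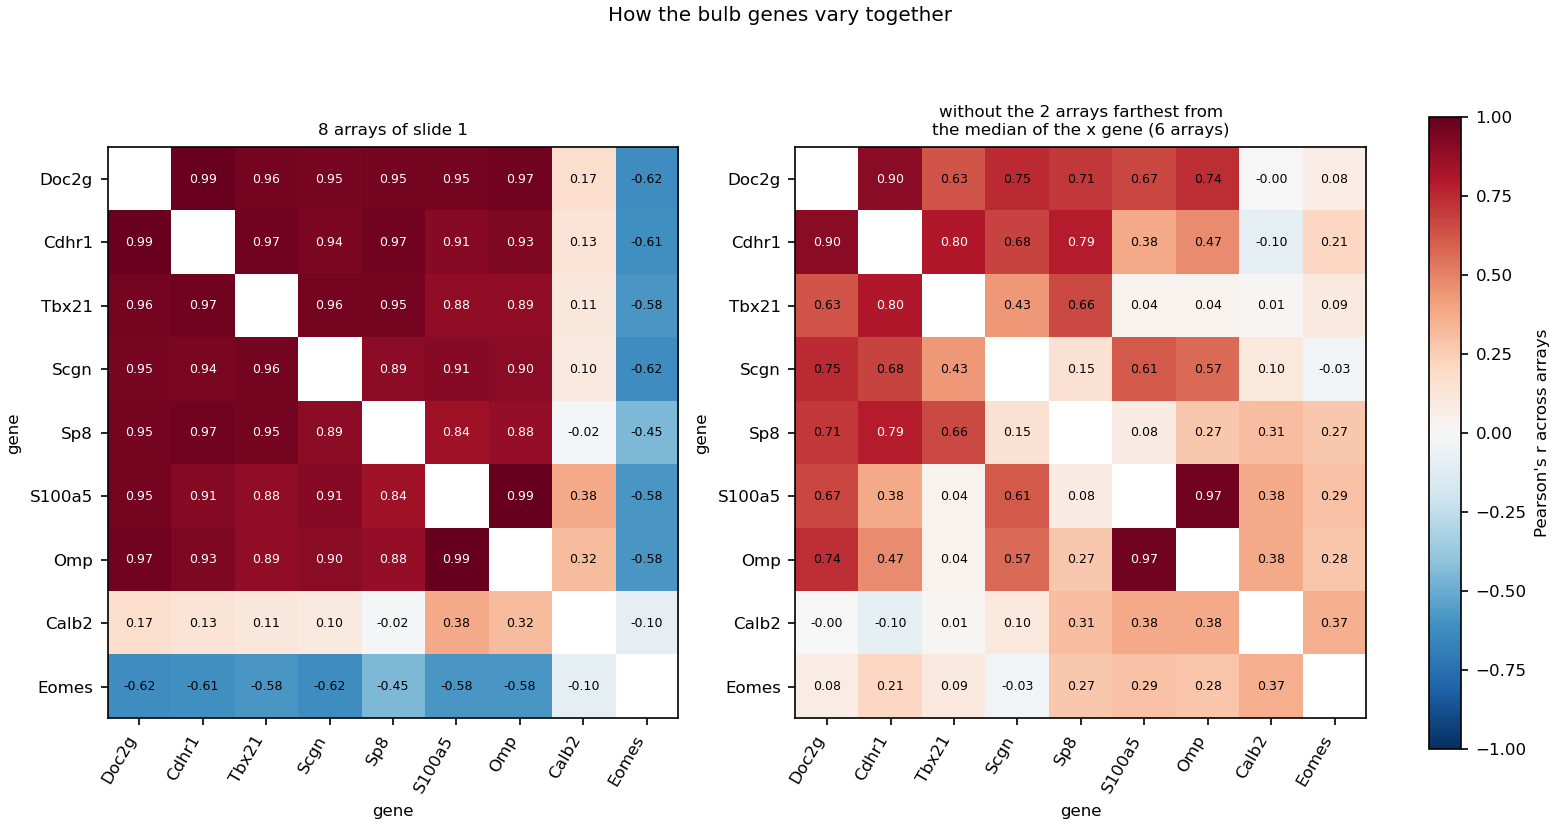
Pearson's r for each pair of the 9 genes across the 8 arrays of slide 1 (left) and across the 6 arrays left when the 2 farthest from the median of the x gene are removed (right); both axes list the genes. The block of 7 genes has r from 0.84 to 0.99 on the left and from 0.04 to 0.97 on the right, where the S100a5 and Omp pair stays at 0.97.

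The other genes that varied most like the mean of the 4 mitral and tufted cell genes were listed by Pearson's r over the 12 arrays after group means were subtracted, as a description. They were Otop2 (r = 0.98), Epha2 (0.97), Aim1 (0.97), Oc90 (0.97) and Nppa (0.97). Without wild-type 6-week replicate 2 their r lay between 0.95 and 0.96. Of the 4 genes that make up the mean, Tbx21 had r = 0.96 with it over 12 arrays, Cdhr1 0.93, Doc2g 0.92 and Eomes 0.16. Without that replicate, where the tested Eomes probe was highest, Eomes had 0.87. Otop2 encodes a proton channel, Epha2 an ephrin receptor, Oc90 an otoconial protein and Nppa atrial natriuretic peptide. Otop2, for example, had -1.93, -2.44 and -0.92 in 6-week wild type, lowest in replicate 2. Oc90 had -5.66 in that replicate 2, under -5.60, the lowest value marked well above background on that array.

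The dip of wild-type 6-week replicate 2 was then set beside 13 other marker lists for cells of the bulb and for other brain regions. In that array the median deviation from each gene's own 12-array median was -1.61 over the 4 mitral and tufted cell genes, -1.16 over the 3 interneuron genes and -3.14 over the 2 sensory neuron genes. It was -0.04 over 10 striatal genes, 0.06 over 10 cerebellar genes, -0.07 over 10 cortical and hippocampal genes and 0.07 over 10 thalamic and hypothalamic genes. It was -0.02 over 11 neuroblast genes, -0.09 over 6 choroid plexus genes, 0.14 over 3 pituitary genes, 0.05 over 4 T and NK cell genes and 0.02 over 2 retinal genes. The array was thus low for 7 of the 9 genes, while the lists of other regions lay close to their medians.

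The longer bulb lists, like those of other regions, lay near their medians or a little below. In the same array the median deviation was -0.04 over 13 further mitral and tufted cell genes, -0.27 over 19 further interneuron genes, -0.01 over 15 further sensory neuron genes and -0.22 over 7 genes of olfactory ensheathing glia, the glia that wrap sensory axons. Many genes of those lists are expressed widely in the brain. Single genes among them were more than 0.5 below the median of the other 11 arrays there, as were 3.00% of all genes. These were Nmb and Shisa3 of 13, Dlx1 and Gng4 of 19, Stoml3 of 15, and Frzb and Ngfr of 7, all named after their values were seen. Nmb, a bombesin-like peptide, had 0.60, 0.36 and 1.26 in 6-week wild type. Stoml3, a stomatin-like membrane protein of sensory neurons, had -5.64 in that replicate 2, against -4.41 to -2.92 in the other 11 arrays. That value is under -5.60, the lowest marked well above background on that array, so the size of this drop is uncertain. Shisa3 had -4.22, -4.62 and -3.41 in 6-week wild type. In the lists of striatum, cerebellum, cortex and hippocampus, and thalamus and hypothalamus no gene was more than 0.5 lower. Some genes went the other way in that array. Of the interneuron and sensory neuron lists, Dlx5 lay 0.74 and Ano2 0.61 above their own 12-array medians. Cbln3 of the cerebellar list lay 0.79 above its own, and Agrp of the thalamic and hypothalamic list 1.05. The labels give no amount of bulb per brain, so its part in this covariation was not tested.

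**Figure D3:**
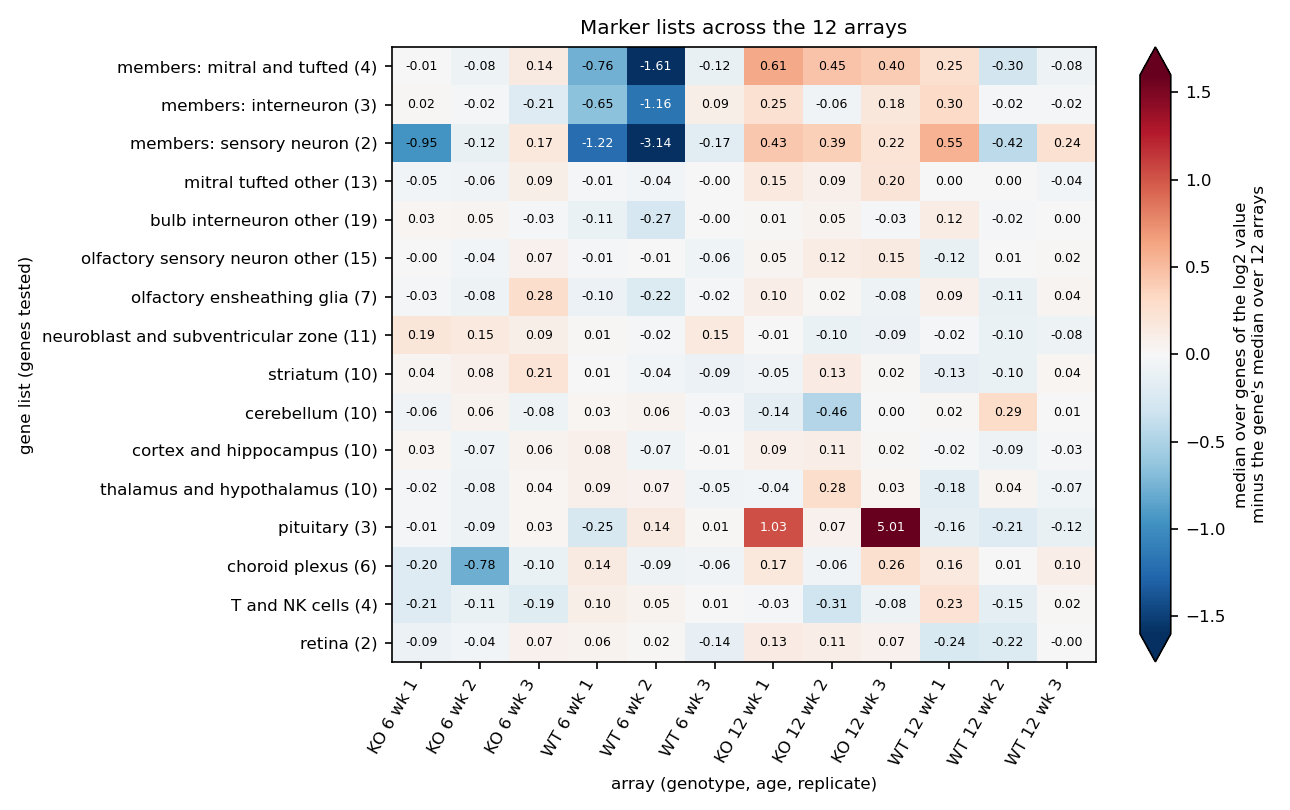
Median over the genes of each marker list of the log2 value minus the gene's own median over 12 arrays (colour and printed value), with arrays across and lists down, the number of genes tested in brackets; the colour scale stops at 1.6 on either side. Wild-type 6-week replicate 2 reads -1.61, -1.16 and -3.14 in the 3 rows of the 9 genes followed here. It reads -0.04, -0.27 and -0.01 in the rows of further mitral and tufted cell, interneuron and sensory neuron genes. Ensheathing glia read -0.22, and the 4 rows of other brain regions read -0.07 to 0.07.

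At 6 weeks the comparison of knockout with wild type asks whether these genes differ without interleukin-18 in young adults. limma called 0 of the 9 genes at an adjusted p under 0.05, where 0.925% of all genes were called. At an unadjusted p under 0.05 there were 4, a count not taken over all genes. In knockout 7 were higher and 2 lower, where 57.5% of all genes were higher. The median log2 change was 0.83 against 0.04 over all genes. The values nearest to the threshold were those of Scgn (0.83 ± 0.23 SE, adjusted p = 0.120) and Tbx21 (0.99 ± 0.29, adjusted p = 0.133). Omp differed by 1.31 ± 0.66, S100a5 by 1.11 ± 0.56, Doc2g by 0.92 ± 0.34 and Cdhr1 by 0.80 ± 0.31. Sp8 differed by 0.59 ± 0.29, Eomes by -0.38 ± 0.24 and Calb2 by -0.21 ± 0.11.

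These changes at 6 weeks depended on which wild-type arrays were in the group. Without wild-type replicate 2, the log2 change was 0.64 for Tbx21, 0.57 for Scgn, 0.46 for Doc2g, 0.42 for Omp, 0.40 for Cdhr1, 0.37 for S100a5 and 0.29 for Sp8, and limma again called 0 of the 9. Without wild-type replicate 3, which had the highest value of its group for these 7 genes, limma called Tbx21 (1.38, adjusted p = 0.0209) and Scgn (1.16, adjusted p = 0.0118). That fit called 117 of all 26495 genes. Within slide 1 alone the change was 0.91 for Tbx21 (adjusted p = 0.326) and 0.89 for Scgn (adjusted p = 0.265). The 6-week wild-type arrays all lay in column 2 of slide 1 and the 6-week knockout arrays all in column 1 of either slide, so within this age column and genotype cannot be told apart. Fitting the slide column as a block takes the column effect from 12-week wild type, the 1 group in both columns. It gave 1.98 for Omp, 1.73 for S100a5, 1.42 for Doc2g, 1.32 for Cdhr1, 1.30 for Tbx21, 1.09 for Sp8, 1.04 for Scgn, 0.0144 for Eomes and -0.11 for Calb2, and called none of them (adjusted p 0.671 or more). The second probe of Sp8 gave -0.07 ± 0.15 and that of Eomes 0.07 ± 0.22 by limma, against 0.59 and -0.38 for the tested probes.

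At 12 weeks limma called 2 of the 9 genes, both higher in knockout, where 33.0% of all genes were called in either direction and 18.5% were called higher. Tbx21 rose by 1.10 ± 0.29 on the log2 scale (adjusted p = 0.0189) and Scgn by 0.69 ± 0.23 (adjusted p = 0.0461). The 2 calls are 22.2% of the 9 genes. The median log2 change was 0.33 against 0.02 over all genes. Of the 9, 7 were higher and 2 lower, of which S100a5 was higher (0.0547) with scaling by the array median. Of all genes 51.8% were higher. Doc2g differed by 0.62 ± 0.34 (adjusted p = 0.182, and 0.0479 in a fit of the 12-week groups alone), Omp by 0.51 ± 0.66 and Cdhr1 by 0.33 ± 0.31. Eomes differed by 0.26 ± 0.24, Sp8 by 0.10 ± 0.29, S100a5 by -0.06 ± 0.56 and Calb2 by -0.15 ± 0.11. The second probe of Sp8 gave -0.27 ± 0.15 and that of Eomes 0.40 ± 0.22.

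Both calls at 12 weeks rest on arrays of different slides, since all 12-week knockout arrays were on slide 2 and all wild-type arrays on slide 1. With slide as a block, which takes the slide effect from the 6-week knockout alone, the change was 0.86 for Tbx21 (adjusted p = 0.729) and 0.87 for Scgn (adjusted p = 0.664). With slide as a random block the adjusted p was 0.220 for Tbx21 and 0.234 for Scgn. Of all 26495 genes, 30 were called with slide as a fixed block and 51 as a random block, against 8741 without a block. The call of Scgn was lost when any 1 of the 6 arrays at 12 weeks was left out (adjusted p 0.0705 to 0.138). That of Tbx21 was lost without wild-type replicate 2 or 3 (adjusted p = 0.0561 and 0.0551) and without knockout replicate 1 or 2 (adjusted p = 0.0573 and 0.0563).

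Pituitary genes were high in some 12-week knockout arrays, with no gene of the list called. Their list median lay at 1.03, 0.07 and 5.01 in 12-week knockout replicates 1, 2 and 3, against -0.21 to -0.12 in 12-week wild type. Pomc, the precursor of pituitary corticotropin, had values of 1.64, 0.68 and 5.62 in 12-week knockout, against 0.43, 0.23 and 0.18 in 12-week wild type. Of the 6 pituitary genes listed 3 were tested, and Prl, Gh and Tshb did not pass the filter on dim probes. The part of these genes in the 12-week values was not tested, and without knockout replicate 3 Tbx21 differed by 1.21 (adjusted p = 0.0335) and Scgn by 0.68 (adjusted p = 0.0966). The T and NK cell list, which bears on Tbx21 and Eomes, lay between -0.31 and -0.03 in 12-week knockout, against -0.15 to 0.23 in 12-week wild type. Cd3g, Cd8a, Klrb1c, Ncr1, Il2rb and Ifng of that list did not pass the filter.

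Of the other bulb lists at 12 weeks, beside the 33.0% of all genes called (18.5% higher), limma called 5 of 13 further mitral and tufted cell genes higher and 3 lower in knockout, among them Nmb (0.88), Lbx1 (0.74) and the neuropeptide gene Cck (0.62). Of 19 further interneuron genes 2 were called higher and 3 lower, among them Th, the rate-limiting enzyme of dopamine synthesis (0.54), Dlx6 (-0.53) and Slc32a1, the vesicular GABA transporter (0.40). Of 15 further sensory neuron genes 4 were called higher and 1 lower, among them the olfactory channel subunit Cnga2 (0.66), Ncam2 (-0.58) and Gng13 (0.56). Of 7 ensheathing glia genes Npy (0.59) was called higher and Mybpc1 (-0.67) lower. With slide as a block none of these named genes passed (adjusted p 0.236 or more), and the changes became -1.01 for Mybpc1, 0.45 for Nmb, -0.35 for Dlx6, 0.27 for Cnga2, 0.16 for Cck, -0.15 for Ncam2, 0.14 for Gng13, 0.06 for Th, -0.05 for Lbx1, -0.0141 for Slc32a1 and -0.00188 for Npy.

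Genes of other brain regions were called in this comparison too. In the striatal list 3 of 10 genes were called higher and 1 lower, and in the cerebellar list 5 of 10 lower, with Neurod1 at -1.07. The cortical and hippocampal list had 3 of 10 called higher and 1 lower, and the thalamic and hypothalamic list 1 of 10 in each direction. Of 11 neuroblast genes Tubb3 (0.37) was called higher, and of 2 retinal genes Rom1 (0.42). With slide as a block the genes named here lost their calls too, with Neurod1 at -0.42 (adjusted p = 0.779), Tubb3 at 0.02 (adjusted p = 0.980) and Rom1 at 0.21 (adjusted p = 0.681). limma called none of the choroid plexus, pituitary or T and NK cell genes at 12 weeks. At 6 weeks, and with age in wild type, it called no gene of any of the 13 lists.

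With age in wild type, 12 against 6 weeks, limma called 0 of the 9 genes, where 0.638% of all genes were called. Of the 9, 7 had an unadjusted p under 0.05, a count not taken over all genes. At 12 weeks 8 were higher, where 50.4% of all genes were higher. The median log2 change was 0.87 against 0.00 over all genes. Scgn came nearest to the threshold (1.09 ± 0.23, adjusted p = 0.0734), and its arrays did not overlap between ages, which was not counted over all genes. S100a5 differed by 1.64 ± 0.56, Omp by 1.63 ± 0.66, Doc2g by 0.95 ± 0.34 and Tbx21 by 0.87 ± 0.29. Cdhr1 differed by 0.83 ± 0.31, Sp8 by 0.53 ± 0.29, Calb2 by 0.08 ± 0.11 and Eomes by -0.59 ± 0.24. All of these arrays were on slide 1, the 6-week arrays in column 2. Of the 12-week arrays, replicate 1 lay in column 2 and replicates 2 and 3 in column 1. With slide column as a block, the age change thus rests on replicate 1 at 12 weeks. Omp then differed by 2.08, S100a5 by 2.05, Doc2g by 1.28, Scgn by 1.23, Cdhr1 by 1.18 and Tbx21 by 1.08. Sp8 differed by 0.86, Calb2 by 0.15 and Eomes by -0.33. The second probe of Sp8 gave -0.0037 ± 0.15 and that of Eomes -0.11 ± 0.22.

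The age difference in wild type shares its 6-week arrays with the genotype comparison at 6 weeks, so the low replicate enters both. Without wild-type 6-week replicate 2 the change was 0.90 for S100a5, 0.83 for Scgn, 0.75 for Omp, 0.53 for Tbx21, 0.49 for Doc2g, 0.44 for Cdhr1 and 0.22 for Sp8. Without wild-type 6-week replicate 3 limma called Tbx21 (1.26, adjusted p = 0.0382) and Scgn (1.41, adjusted p = 0.00799). That fit called 77 of all 26495 genes.

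With age in knockout limma called 0 of the 9 genes, where 2.01% of all genes were called. Of the 9, 2 had an unadjusted p under 0.05, a count not taken over all genes. By the tested probes all 9 were higher at 12 weeks, where 49.1% of all genes were higher. The second probe of Sp8 gave -0.20 ± 0.15 and that of Eomes 0.22 ± 0.22. The median log2 change was 0.46 against -0.01 over all genes. Arrays did not overlap between ages for Scgn (0.95 ± 0.23, adjusted p = 0.0601), Tbx21 (0.98 ± 0.29, adjusted p = 0.0834), Omp (0.83 ± 0.66), Doc2g (0.65 ± 0.34) and Cdhr1 (0.37 ± 0.31). How many of all genes had arrays apart in this way was not counted. S100a5 differed by 0.46 ± 0.56, Calb2 by 0.14 ± 0.11, Eomes by 0.05 ± 0.24 and Sp8 by 0.04 ± 0.29. Within slide 2, Tbx21 had -1.11, -1.08 and -1.43 at 12 weeks, against -2.03 in the 1 knockout array of 6 weeks, and Scgn had -2.80, -2.96 and -2.87, against -3.94. With slide as a block the change was 0.82 for Tbx21 (adjusted p = 0.682) and 1.07 for Scgn (adjusted p = 0.461). Without knockout 6-week replicate 3, limma called Tbx21 (1.05, adjusted p = 0.0476) and Scgn (0.89, adjusted p = 0.0397). That fit called 7414 of all 26495 genes, against 532 with all arrays. It left the 6-week knockout on slide 1 and the 12-week knockout on slide 2, so age and slide cannot be told apart in it.

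Whether the genotype difference changed with age was tested as the difference between the 12-week and the 6-week contrast. limma called 0 of the 9 genes, where 0.189% of all genes were called, and none had an unadjusted p under 0.05 (adjusted p 0.320 to 0.904). The value was -1.18 ± 0.79 for S100a5, -0.80 ± 0.94 for Omp, 0.64 ± 0.34 for Eomes, -0.15 ± 0.33 for Scgn and 0.11 ± 0.41 for Tbx21. These values depended on single arrays: without wild-type 6-week replicate 2 they were -0.43 for S100a5, 0.08 for Omp, 0.42 for Eomes, 0.11 for Scgn and 0.45 for Tbx21, and without wild-type 6-week replicate 3 they were -0.47 for Scgn and -0.28 for Tbx21. No member was called in either case. Of the other bulb genes listed, Nr4a2, a nuclear receptor of dopaminergic neurons, was called (-0.65 ± 0.10, adjusted p = 0.0380; 0.0796 with slide as a block), and the call was lost in 11 of 12 fits that left out 1 array (adjusted p 0.00488 to 0.108). It had 2.83, 2.77 and 2.89 in 6-week knockout, against 2.61, 2.47 and 2.64 in 6-week wild type, and 2.48, 2.38 and 2.47 in 12-week knockout, against 2.89, 2.76 and 2.85 in 12-week wild type. It was also called with age in knockout (-0.39 ± 0.07, adjusted p = 0.0351), a call lost in 5 of 6 such fits and in the fit blocked by slide (adjusted p = 0.201).

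**Figure D4:**
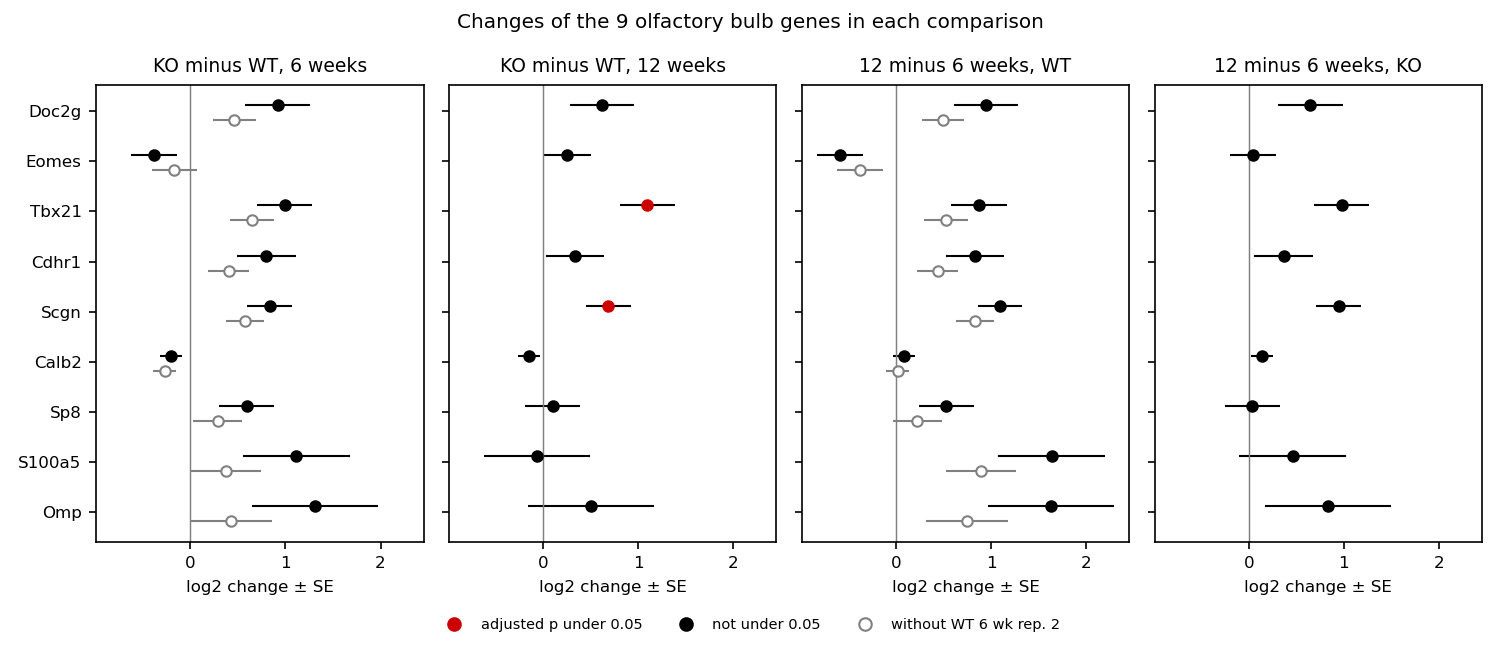
Log2 change ± SE of each gene by limma in the 4 comparisons (3 arrays per group), with all arrays as filled points, red where the adjusted p was under 0.05, and without wild-type 6-week replicate 2 as open points in the 2 comparisons that use it. Tbx21 and Scgn at 12 weeks are the red points, and the open points lie nearer to 0 than the filled ones for 8 of the 9 genes at 6 weeks and for all 9 with age in wild type.

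Because 7 of the genes varied together, the promoters of the 9 genes were searched for letters bound by factors of this tissue. T-box factors such as Eomes and Tbx21 are known to bind elements with the core GGTGTG, and Ebf factors of sensory neurons bind the letters TCCC and GGGA set 2 bases apart. Both strands of the 250 bases before each gene's start were searched in the RefSeq promoter sequences of build GRCm38.p6, where 7 of the 9 genes had an entry. Omp and Calb2 had none, so the 7 searched were not the 7 that varied together. The searched genes include Eomes, and S100a5 is their only sensory neuron gene. GGTGTG was found for Doc2g, Cdhr1 and Sp8, which is 3 of 7 genes, and in 16.3% of 32851 promoters. The 7 genes have 9 promoters among these, so a share of genes stands here beside a share of promoters. The Ebf letters were found for none of the 7 searched and in 0.779% of all. Capitals mark the match, which reads CACACC on the strand of the gene.
Doc2g, chr19:4003135-4003384, plus strand: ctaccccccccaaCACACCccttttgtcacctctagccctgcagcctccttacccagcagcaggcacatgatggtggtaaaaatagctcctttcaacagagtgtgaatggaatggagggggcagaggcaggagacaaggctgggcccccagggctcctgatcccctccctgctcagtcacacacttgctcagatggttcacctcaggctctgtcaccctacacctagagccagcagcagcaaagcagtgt
Cdhr1, chr14:37098348-37098597, minus strand: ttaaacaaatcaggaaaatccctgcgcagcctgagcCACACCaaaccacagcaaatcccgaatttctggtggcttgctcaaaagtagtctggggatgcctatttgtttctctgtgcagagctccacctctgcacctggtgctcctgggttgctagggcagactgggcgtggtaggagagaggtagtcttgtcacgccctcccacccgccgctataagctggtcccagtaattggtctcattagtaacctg
Sp8, chr12:118846079-118846328, plus strand: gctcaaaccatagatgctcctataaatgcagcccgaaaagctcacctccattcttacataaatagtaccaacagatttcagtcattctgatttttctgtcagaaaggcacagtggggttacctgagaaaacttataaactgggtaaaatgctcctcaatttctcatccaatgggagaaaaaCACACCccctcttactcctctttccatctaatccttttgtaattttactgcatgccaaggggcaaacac
The match begins 237 bases before the start in Doc2g, 214 in Cdhr1 and 69 in Sp8. Pairs of these 3 genes had r of 0.95 to 0.99 across slide 1, and pairs of Doc2g or Cdhr1 with Tbx21, where the letters were not found, had 0.96 and 0.97.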

How the data were processed

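Total RNA of whole brain was labelled with Cy3 and hybridised to 1 Agilent array per sample, per the labels. The authors deposited scan files, for which the submitters' processing notes name Agilent Feature Extraction, version 10.7.3.1. The deposited signals are fluorescence intensity, per the file headers, with other deposited columns of 0 or 1, per the file headers, that mark spots above background or outliers. The deposited value table is an intensity that differed from the processed signal by at most 0.498%, and it served as an alternative.

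The log2 of the processed signal minus the log2 of each array's 75th percentile was used, without control and outlier spots. A probe was kept if every array of 1 or more groups marked it well above background, and 1 probe per gene was tested, the one with the highest mean. limma 3.58.1 in R 4.3.3 fitted 1 mean per group over 12 arrays (8 residual degrees of freedom), two-sided, with Benjamini-Hochberg adjustment over 26495 genes and a threshold of 0.05. Errors with ± are SE. The number of arrays limits the precision, and p-values measure the spread between these samples. The fit was tested on simulated data. The sequence of 1 probe is not reported here.

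The genes, the lists, the tests and the rule for named genes were chosen with earlier results of these data known. That rule names every member, up to 3 called genes per list with the largest change, and the 5 genes most like the mitral and tufted cell genes. Of 144 list genes 143 matched the arrays, 2 through a synonym. Alternatives were slide, slide column and replicate number as blocks, other background correction, scaling, filters and variance settings, and each array left out. Same-numbered arrays did not deviate together: 2 of 18 pairs had a correlation over 0.1, so numbers were not used as pairs.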

Additional observations from a re-analysis of the deposited data

Results flagged for a closer look

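The genotype difference of Nr4a2, a gene from the list of further bulb interneuron genes, differed between the ages by limma's test of that difference (-0.65 ± 0.10 on the log2 scale, 12-week minus 6-week contrast, adjusted p = 0.0380, 3 arrays per group). All 3 knockout arrays were above all 3 wild-type arrays at 6 weeks and below them at 12 weeks, an order not counted over all genes. With slide as a block the value was -0.71 (adjusted p = 0.0796), so that call was lost. It was also lost when any 1 of 11 of the 12 arrays was left out (adjusted p 0.00488 to 0.108 over the 12). The 12-week knockout arrays all lay on slide 2.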

How the results depend on the processing

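Over all alternatives and the 5 comparisons, the results of single members kept their direction and side of the threshold in 866 cases, lost a call in 16, gained one in 12 and turned round in 24. Those of the other named genes kept theirs in 325 cases, lost a call in 170 and turned round in 3. Calls over all genes at 12 weeks were 8741 as reported, 30 with slide as a fixed block and 51 as a random block. They were 5931 with slide column, 6731 of 36163 with no filter on dim probes and 9585 with only the 12-week groups. The count of members called at 12 weeks, 2, became 0 with slide as a fixed or random block. It was 1 with slide column as a block or with no filter on dim probes. With only the 12-week groups in the fit it was 3, where Doc2g was added. With single arrays left out it ran from 0 to 1 at 12 weeks, against 0 to 2 at 6 weeks and with age in each genotype, and from 9 to 21 for the correlated pairs. Trend and robust variance called 1 member with age in each genotype. With age in knockout normexp called 2 and the filter on all 12 arrays 1. The cause was not tested.

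Reversed log2 changes of members, none of them called, were those of Eomes at 6 weeks with slide column (0.0144). At 12 weeks they were S100a5 with slide column (0.14), with median scaling (0.0547), without wild-type replicate 1 (0.14) and without knockout replicate 3 (0.0062), Omp with slide as a fixed block (-0.30), Sp8 without wild-type replicate 2 (-0.0566) and Eomes with slide as a fixed block (-0.30). With age in knockout they were Sp8 without 6-week replicate 3 (-0.10) or 12-week replicate 1 (-0.05), and Eomes with slide as a fixed (-0.32) or random block (-0.11) and without 6-week replicate 1 (-0.10) or 12-week replicate 2 (-0.00117). With single arrays left out, these ran from -0.29 to 0.14 for S100a5 and -0.06 to 0.27 for Sp8 at 12 weeks, and from -0.10 to 0.13 for Sp8 and -0.10 to 0.23 for Eomes with age in knockout. For the difference between ages they were Calb2 (-0.00831) and Tbx21 (-0.0994) with slide column, Tbx21 with slide as a fixed block (-0.0509) and Scgn with normexp (0.13). With single arrays left out that difference ran from -1.53 to 0.0825 for Omp, -0.68 to 0.15 for Doc2g, -0.0337 to 0.16 for Calb2, -0.28 to 0.45 for Tbx21 and -0.47 to 0.11 for Scgn, each turning sign. Lbx1 (-0.0522), Slc32a1 (-0.0141) and Npy (-0.00188), called higher at 12 weeks, turned with slide as a fixed block, which ended their calls.

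With the replicate number as a block, 2 members were called at 12 weeks and 0 in the other comparisons, so it changed no call of a member, while Nr4a2 with age in knockout lost its call (adjusted p = 0.0525); 2 of 12 arrays correlated best with an array of their own number. Over all genes the calls ran from 54 to 595 at 6 weeks (245 as reported), from 30 to 11699 at 12 weeks (8741), from 28 to 395 with age in wild type (169), from 0 to 7414 with age in knockout (532) and from 10 to 4719 for the difference between ages (50). With scaling by the median, the change of the middle gene became 0.13 at 6 weeks and 0.14 at 12 weeks, and the share of calls that were higher became 82.6% at 6 weeks (59.2% as reported), 78.6% at 12 weeks (56.0%) and 74.5% with age in knockout (54.5%).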
